A study of Mus musculus with 65 samples.

Results

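The data are PRO-seq libraries of MEL cells, a mouse erythroleukemia line, 2 h after the corepressor Mtg16 was sent for degradation, set against the vehicle DMSO. They were chosen by the column names of the authors' time-course tables, which give 2 libraries of dTAGV1 for 2 h and 3 libraries of DMSO (named 0 h), 5 of the 65 samples of the series. The cells of all groups used here, DMSO cells included, make Mtg16, the product of Cbfa2t3, with FKBP and HA tags attached, and nothing in the labels says whether the line is 1 clone. dTAGV1, used at 250 nM and called the degrader here, recruits FKBP-tagged proteins for removal by the proteasome. For both 2 h libraries the title and the treatment label say A485, which blocks histone acetylation by p300 and CBP, while the library name and the column say dTAGV1. The same conflict touches 5 libraries in all (1 h and 2 h). The libraries are followed here as their columns name them, and the values that bear on the conflict are given below. The labels do not say that replicates came from separate cultures, so p-values measure the spread between these libraries, which may be technical.

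PRO-seq is a nuclear run-on: polymerases already at work add a biotinylated nucleotide to their RNA, and the RNA pulled down by biotin reports where polymerase was engaged and not how much mature RNA the cell held. Mtg16 belongs to the MTG (ETO) family of corepressors, which do not bind DNA on their own. In red cell and megakaryocyte precursors it sits with the transcription factors SCL (Tal1), GATA1, Lmo2 and Ldb1, and brings in histone deacetylases and other corepressors. The complex is known for holding back genes of terminal red cell differentiation.

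Values are normalised read counts, the authors' DESeq2-scaled counts. A change shared by most genes would be invisible on this scale, and each change is relative to the typical gene of its library. In such bulk libraries fewer cells of a type and less RNA per cell cannot be told apart. Recovered depth, summed over transcripts that can share reads, was 58051210 and 47148755 reads in the 2 h libraries, against 20727450 to 44644674 in DMSO. Over dREG sites it was 6865722 and 5209173 at 2 h, against 2390625 to 4649438 in DMSO. The erythroid markers were present: 11 of 14 were in the gene table, 10 of them at a mean of at least 10, and the summed count was 52330 and 53090 at 2 h, against 29060 to 31030 in DMSO. Slc4a1, Hba-a1 and Hba-a2 were not among the symbols analysed. Of 5 T cell markers 1 was in the table (Cd8a, at most 0.856 in any of the 5 libraries), and 2 of 4 fibroblast markers summed to 2.78 and 7.71 at 2 h, against 8.24 to 24.2 in DMSO. The 3 of 5 B cell markers summed to 35.5 and 60.0 at 2 h, against 43.3 to 61.3 in DMSO. The 4 of 8 macrophage and granulocyte markers summed to 61.2 and 65.1, against 57.6 to 61.5, with Ly6g at 0 throughout. Of 3 endothelial markers Pecam1 was in the table (146.7 and 127.6 at 2 h, 118.1 to 136.8 in DMSO). A pair of libraries of other time points stood apart. The library labelled degrader 15 min replicate 2 was more like the 2 h libraries (mean r = 0.47 over genes) than like its own group (-0.33), and degrader 30 min replicate 3 had a mean r of -0.10 with its own group. Neither enters the comparison, and time-course values below are given without them and then with them. The last washout column of the time-course gene table is empty, so its names and values could be out of step. For the 5 columns used, 1 recovered read was worth 0.695 and 0.856 at 2 h and 1.86, 0.866 and 1.37 in DMSO, against 0.654 and 0.863 at 2 h and 1.87, 0.914 and 1.49 in DMSO in the site table, which has no empty column. Whether libraries were swapped was not tested.

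Cbfa2t3, the gene of the degraded protein, was transcribed far more in the 2 h libraries. It had 175800 and 163200 normalised reads at 2 h, against 28757, 23508 and 19178 in DMSO. The groups did not overlap, and limma gave a log2 change of 2.85 ± 0.11 (SE, n = 2 against 3, adjusted p = 9.74e-10). Run-on reads report transcription of the tagged gene and cannot check that the protein was lost. Of the other family genes, Cbfa2t2 had 4495 and 4513 reads at 2 h, against 4407 to 4455 in DMSO (0.02 ± 0.04, adjusted p = 0.764), and Runx1t1 stayed under the minimum mean of 10 (6.26 and 6.0 at 2 h, against 1.73 to 6.87 in DMSO). Of 21 tested genes for MTG proteins and the corepressors they work with, 3 rose and 3 fell, near the shares over all genes tested (14.1% rose and 11.3% fell). Besides Cbfa2t3 these were Mta2 (0.63) and Tbl1xr1 (0.22), which rose, and Hdac1 (-0.20), Rcor1 (-0.16) and Chd4 (-0.14), which fell. Ncor1, Hdac2, Hdac3 and Kdm1a did not pass, with log2 changes between -0.13 and 0.07.

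Over all genes, 1783 of 12666 rose and 1435 fell at an adjusted p under 0.05. The rises were the larger changes. They had a median of 0.35 on the log2 scale with 259 at or above 1, against a median of -0.34 and 69 at or below -1 for the falls, and a median of 0.00 over all genes tested. Genes with large changes in either direction were mostly of low level. The median over the 5 libraries was 202.5 reads for rises of at least 1 and 150.3 for falls of at least 1. It was 811.2 for all genes tested, 1984 for all risen genes and 1073 for all fallen genes. The count of genes called (3218 in all) was 1713 or 1640 when 2 h replicate 1 or 2 was left out, and 956 when the libraries of every degrader time were fitted together, a fit that holds the libraries that stand apart, and it was 3976 in that fit without them.

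**Figure D1:**
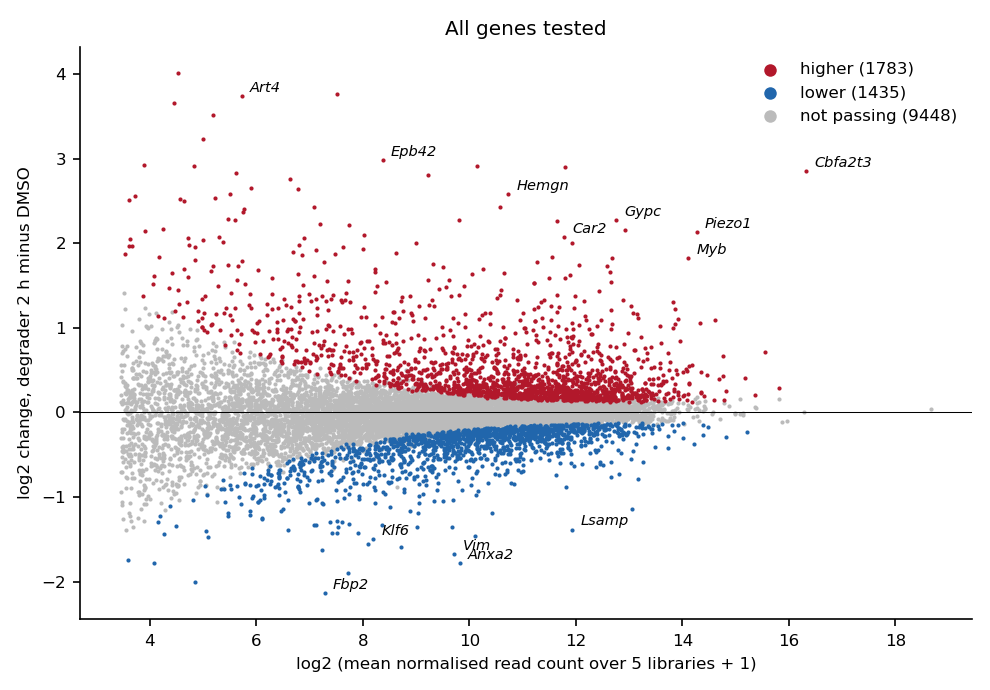
Log2 change (degrader 2 h minus DMSO) of each of 12666 genes against its mean normalised read count over 5 libraries on a log2 scale, with genes that passed the test in red (1783 higher) and blue (1435 lower) and the others in grey. Rises reach further from 0 than falls over the whole range of levels, and Cbfa2t3 is among the most heavily read genes.

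The 20 largest rises among well-read genes, defined as a mean of at least 50 reads and no overlap between groups, ran from 2.22 (Nhlrc4) to 3.77 (Gm10612). Gm10612, a long noncoding RNA gene that lies across Cbfa2t3 in the GRCm38.p6 annotation, had 431.7 and 387.1 reads at 2 h, against 35.3, 26.8 and 26.1 in DMSO. Strand use in counting is not stated, so its reads and those of Cbfa2t3 cannot be told apart. Art4, which encodes the Dombrock blood group protein, had 119.6 and 115.6 reads at 2 h, against 9.29, 9.53 and 5.49 in DMSO (3.74 ± 0.33, adjusted p = 2.27e-06). Epb42, the protein 4.2 of the red cell membrane skeleton, had 699.2 and 682.6 at 2 h, against 120.8, 79.7 and 67.3 in DMSO (2.98 ± 0.20, adjusted p = 1.27e-07). The rule that named both genes required that their groups not overlap. Art4 reached the mean of 50 only through its 2 h libraries (DMSO mean of 8.11). So did others of the 20, among them Kcne3, Msmb and Apol11b (DMSO means of 19.1, 18.9 and 19.2). Hemgn, a nuclear protein of erythroid cells, had 3363 and 3398 reads at 2 h, against 561.3, 532.6 and 603.1 in DMSO (2.58 ± 0.07, adjusted p = 4.96e-11). Gypc, which encodes a red cell surface glycoprotein, rose by 2.27 ± 0.06.

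The others among these 20 were not a red cell set as a whole. Slc22a4, an organic cation transporter gene, had 2461 and 2239 reads at 2 h, against 277.5 to 366.1 in DMSO (2.91 ± 0.11). Ak8, an adenylate kinase gene, had 7501 and 7229 at 2 h, against 769.3 to 1262 in DMSO (2.90 ± 0.14), and the overlapping Spaca9 also rose (1.28). Acoxl rose by 2.81 ± 0.15, and its overlapping neighbour Bcl2l11, which encodes the cell death protein Bim, rose by 1.53. Csf2rb2, a cytokine receptor beta chain, had 3091 and 2838 at 2 h, against 541.3 to 557.6 in DMSO (2.43 ± 0.07). Its close paralog Csf2rb rose by 1.66 ± 0.05, and reads of the pair may be shared between them. Kcne3 (2.41), Msmb (2.66), Apol11b (2.37), Tspan33 (2.26), Pabpn1l (2.76), Cdkl1 (2.23) and the noncoding genes 9030404E10Rik (2.64) and Gm35202 (2.43) completed the group with Nhlrc4. Each had both 2 h libraries above all 3 DMSO libraries, which the rule for naming them required. Tspan33 is also counted below among the red cell membrane skeleton genes. Pabpn1l lies downstream of Cbfa2t3 on the same strand. Whether its reads came from polymerase that ran past the end of Cbfa2t3 was not tested.

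**Figure D2:**
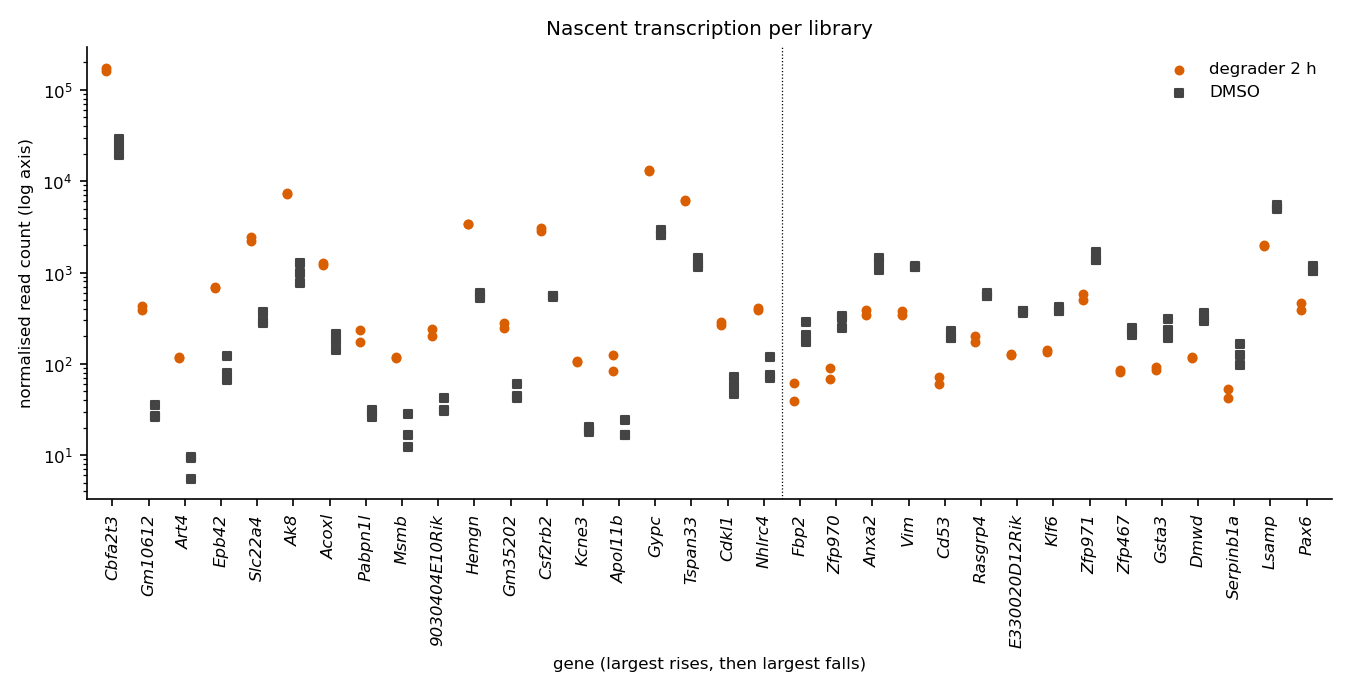
Normalised read count (log axis) of the largest rises and, right of the dotted line, the 15 largest falls, with each point 1 library (2 at degrader 2 h, 3 in DMSO). In each gene shown the 2 groups lie apart, which the rule for naming them required. Cbfa2t3 reads about 163200 to 175800 at 2 h against 19178 to 28757 in DMSO.

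The promoters of 4 erythroid genes that rose, of Cbfa2t3 and of Vim, a gene that fell, are shown to let the letters around the start sites be compared. They are RefSeq sequences on GRCm38.p6, 250 bases before to 50 after each gene's start. Capitals mark AGATAA on either strand, a form of the site that GATA factors recognise. Other forms are not marked. The windows are Art4 at chr6:136857551-136857850, minus strand, Epb42 at chr2:121036828-121037127, minus strand, Hemgn at chr4:46404134-46404433, minus strand, Alas2 at chrX:150547167-150547466, plus strand, Cbfa2t3 at chr8:122699060-122699359, minus strand, and Vim at chr2:13574061-13574360, plus strand. The files use mm39, so these positions belong to the reference and not to the files.
Art4: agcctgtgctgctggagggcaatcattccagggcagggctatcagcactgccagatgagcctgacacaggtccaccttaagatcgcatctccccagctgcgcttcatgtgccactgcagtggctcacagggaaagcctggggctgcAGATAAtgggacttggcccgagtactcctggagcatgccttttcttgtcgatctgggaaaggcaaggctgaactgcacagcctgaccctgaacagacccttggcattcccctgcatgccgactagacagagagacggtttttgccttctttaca
Epb42: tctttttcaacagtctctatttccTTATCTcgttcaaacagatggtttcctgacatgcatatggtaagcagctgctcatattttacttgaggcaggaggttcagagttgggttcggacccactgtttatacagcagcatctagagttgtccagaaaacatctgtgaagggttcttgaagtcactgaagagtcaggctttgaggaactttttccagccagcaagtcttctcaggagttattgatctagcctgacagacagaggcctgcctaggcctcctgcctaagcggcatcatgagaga
Hemgn: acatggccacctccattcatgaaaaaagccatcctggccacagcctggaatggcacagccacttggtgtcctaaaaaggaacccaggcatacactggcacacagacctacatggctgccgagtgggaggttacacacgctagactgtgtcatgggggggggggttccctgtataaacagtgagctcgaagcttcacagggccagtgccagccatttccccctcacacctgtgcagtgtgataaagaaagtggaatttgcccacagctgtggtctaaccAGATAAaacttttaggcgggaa
Alas2: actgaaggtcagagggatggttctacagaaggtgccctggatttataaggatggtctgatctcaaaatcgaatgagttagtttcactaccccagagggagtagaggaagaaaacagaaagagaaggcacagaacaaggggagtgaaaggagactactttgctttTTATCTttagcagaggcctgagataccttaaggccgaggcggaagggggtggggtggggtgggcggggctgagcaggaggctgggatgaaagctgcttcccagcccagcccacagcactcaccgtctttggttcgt
Cbfa2t3: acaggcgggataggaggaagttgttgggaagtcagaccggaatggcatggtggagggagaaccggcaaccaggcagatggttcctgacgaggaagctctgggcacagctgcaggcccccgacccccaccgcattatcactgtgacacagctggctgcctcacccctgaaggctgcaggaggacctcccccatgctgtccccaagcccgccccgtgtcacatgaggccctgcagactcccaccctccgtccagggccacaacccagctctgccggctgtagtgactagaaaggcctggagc
Vim: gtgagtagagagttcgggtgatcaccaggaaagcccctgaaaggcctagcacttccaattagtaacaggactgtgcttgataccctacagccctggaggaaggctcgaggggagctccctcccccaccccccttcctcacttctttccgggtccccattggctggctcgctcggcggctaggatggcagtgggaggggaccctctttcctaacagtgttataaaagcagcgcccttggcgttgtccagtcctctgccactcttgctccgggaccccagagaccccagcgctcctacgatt
The match lies 104 bases before the start in Art4, 226 before it in Epb42 and 86 before it in Alas2, and at base 29 after it in Hemgn. The windows of Cbfa2t3 and Vim hold no AGATAA. That of Cbfa2t3 does hold TTATCA, which reads TGATAA on the other strand. It also holds CAGCTG and, on the other strand, CTG followed after 7 to 9 bases by GATA, elements counted below. These genes were picked for what they show: of 16 promoters found for the 20 largest rises, 3 held AGATAA, and of 13 for the 15 largest falls, 2 did.

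Over the 10224 tested genes with a promoter sequence, AGATAA on either strand was found in 6.65%. It was in 35 of the 206 promoters of genes that rose by at least 1 and in 6 of the 50 of genes that fell by at least 1. Among all called genes it was in 7.8% of the 1435 promoters of risen genes and in 7.6% of the 1158 of fallen genes, and it was in 6.29% of those that did not pass. CTG followed after 7 to 9 bases by GATA, the spacing of a composite E-box and GATA element, was in 29 of the 206 (14.1%), in 1 of the 50 and in 4.99% of all. It can share its GATA letters with AGATAA. The E-box CAGCTG was in 41 of the 206 (19.9%), in 6 of the 50 and in 14.7% of all, and the RUNX core TGTGGT in 37 of the 206 (18.0%), in 10 of the 50 and in 12.7% of all. Base composition stood apart from that of all genes in both sets of large changes. GGGCGG was in 89 of the 206 promoters (43.2%) and in 21 of the 50 (42.0%), against 63.0% of all, and the median count of CG dinucleotides was 8 for genes that rose by at least 1 and 8.5 for genes that fell by at least 1, against 21 for all. The part of base composition in the motif shares was not tested.

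Heme synthesis and iron genes rose in 14 of 23 members tested, fell in 2 and did not pass in 7. Their median was 0.48 on the log2 scale, against 0.00 over all genes, where 14.1% rose. This list and all the others were chosen with earlier results of these data known, so their counts are not independent of those results. Alas2, which starts heme synthesis in red cell precursors, had 1788 reads in both 2 h libraries, against 550.2, 557.8 and 612.7 in DMSO (1.64 ± 0.07, adjusted p = 2.39e-09). Cpox, which acts later in the pathway, rose by 1.32 ± 0.07, the mitochondrial transporter Abcb10 by 1.24 ± 0.05 and the iron exporter Slc40a1 by 1.27 ± 0.08. Alad, Uros and Fech, further enzymes of the pathway, rose by 0.49 to 0.80. Urod and Ppox did not pass (0.20 and 0.30). The members that fell were Hmox1, the heme-degrading oxygenase (-1.08), and Ftl1, a ferritin chain (-0.71).

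The red cell membrane moved with them. Of 17 membrane skeleton genes 14 rose (against 14.1% of all genes), 1 fell (11.3%) and 2 did not pass (median 0.73). Beside Epb42, Piezo1 (which overlaps the also risen Ctu2), a mechanosensitive channel gene, had 38371 and 34963 reads at 2 h, against 7196 to 9565 in DMSO (2.13 ± 0.09), and Tmod1, which caps actin filaments, rose by 1.59 ± 0.06. Sptb, the gene of a spectrin chain, rose, Mpp1 fell (-0.36), and Add1 and Add3 did not pass (-0.13 and -0.02). Of 19 blood group and red cell surface genes 15 rose (14.1% of all genes), 1 fell (11.3%) and 3 did not pass (median 0.78). The water channel gene Aqp1 had 4415 and 4141 reads at 2 h, against 1111 to 1335 in DMSO (1.77 ± 0.08), while Bcam, the Lutheran antigen gene, fell (-1.03).

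Of 25 other erythroid genes 16 rose (against 14.1% of all genes), 1 fell (11.3%) and 8 did not pass (median 0.49). Car2, carbonic anhydrase 2, had 6506 and 6441 reads at 2 h, against 1675, 1448 and 1510 in DMSO (2.07 ± 0.06, adjusted p = 7.85e-11). Slc6a9, a glycine transporter gene, rose by 1.45 ± 0.07 and Pklr, the red cell pyruvate kinase, by 1.35 ± 0.08, while catalase (Cat) fell (-0.41). Globin transcription was barely measured: Hbb-bt had 34.1 and 54.8 reads at 2 h, against 15.6 to 28.8 in DMSO (limma adjusted p = 0.0467). Hbb-b2 carries the same values, the copies cannot be told apart, and the call was lost when any 1 of 4 of the 5 libraries was left out, under DESeq2 and without the filter on low values.

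Of 32 blood transcription factor genes 18 rose (against 14.1% of all genes), 2 fell (11.3%) and 12 did not pass (median 0.30). The partners of Mtg16 were among the risen genes: Tal1 had 6692 and 7183 reads at 2 h, against 3535 to 3727 in DMSO (0.93 ± 0.05), and Gata1 had 4884 and 5085, against 2669 to 2894 (0.83 ± 0.05). Lmo2 (1.00), Lyl1 (1.08), Gfi1b (1.33) and Klf1 rose too, and Ldb1 did not pass (0.14). Myb, a driver of precursor proliferation, had 31094 and 30972 reads at 2 h, against 9674, 8414 and 8180 in DMSO (1.83 ± 0.06, adjusted p = 1.87e-10). Erg, an ETS factor of stem cells and megakaryocytes, rose by 1.93 ± 0.18. Cbfb, the partner of RUNX factors, fell (-0.51), as did Meis1 (-0.42).

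Of 23 megakaryocyte and platelet genes 13 rose (against 14.1% of all genes), none fell (11.3%) and 10 did not pass (median 0.36). Itgb3, the platelet integrin beta 3 chain, had 318.4 and 309.2 reads at 2 h, against 96.6, 97.0 and 65.9 in DMSO (1.87 ± 0.18), and F2r, a thrombin receptor gene, had 11300 and 11884, against 2991 to 3587 (1.83 ± 0.07). Slfn14 rose by 2.58 ± 0.30. White cell genes went both ways. Of 17 granulocyte, macrophage and mast cell genes 3 rose and 4 fell (median -0.13), against 14.1% and 11.3% of all genes. Il1b, interleukin-1 beta, had 93.1 and 89.1 reads at 2 h, against 13.0 to 25.1 in DMSO (2.27 ± 0.31), and Rasgrp4, a mast cell signalling gene, fell (-1.59 ± 0.11).

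The falls were led by other genes. Fbp2, which encodes a fructose bisphosphatase, had 61.2 and 39.4 reads at 2 h, against 289.9, 209.6 and 173.1 in DMSO (-2.14 ± 0.23, adjusted p = 1.55e-05). Anxa2, annexin A2, had 344.1 and 386.2 at 2 h, against 1069, 1273 and 1451 (-1.78 ± 0.11), and Vim, the intermediate filament protein vimentin, had 342.0 and 382.8, against 1154, 1184 and 1146 (-1.68 ± 0.08). The rule that named these 3 genes required that their groups not overlap. Lsamp, a neural adhesion protein gene, was the most heavily read of the 15, with 1961 and 2003 reads at 2 h, against 5024 to 5436 in DMSO (-1.38 ± 0.05). The zinc finger genes Zfp970 (-1.90), Zfp971 (-1.46) and Zfp467 (-1.43) fell, and the first 2 belong to a family of close paralogs. The transcription factor genes Klf6 (-1.50) and Pax6 (-1.36), the tetraspanin gene Cd53 (-1.63), Gsta3 (-1.43), Dmwd (-1.42), Serpinb1a (-1.39) and the noncoding E330020D12Rik (-1.56) made up the rest with Rasgrp4.

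The list of intermediate filament, annexin and adhesion genes, chosen with such falls already known, had 14 of 25 members lower (background 11.3%), 5 higher and 6 that did not pass (median -0.36). Beside Anxa2 and Vim, S100a10, the partner of annexin A2, fell by 0.96 on the log2 scale and Anxa6 by 0.73, while the integrin genes Itga4 (0.81) and Itgb7 (0.72) rose. Among 25 cytokine receptor and feedback genes 11 fell and 4 rose (median -0.23), against 11.3% and 14.1% of all genes. Epor, the erythropoietin receptor, rose by 0.99 ± 0.08, and Stat5a and Stat5b, which act below it, by 0.31 and 0.37. Cish, a feedback inhibitor of this pathway, fell to 1486 and 1525 reads at 2 h, against 2245 to 2701 in DMSO (-0.70 ± 0.07).

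Growth genes changed by small amounts. Of 26 ribosome biogenesis and Myc target genes 16 rose (against 14.1% of all genes), none fell (11.3%) and 10 did not pass. All 26 changes were positive (0.12 to 0.75, median 0.27). The largest was Odc1, the first enzyme of polyamine synthesis (0.75 ± 0.11). Myc itself had 3730 and 3717 reads at 2 h, against 1988 to 2643 in DMSO (0.66 ± 0.09). The count fell to 1 risen member when all groups, washout included, were fitted together. The other lists are to be read against the 14.1% of all genes that rose and the 11.3% that fell. Of 31 cell cycle and p53 target genes 8 rose and 5 fell: Gadd45a, a stress-response gene, had 1170 and 1282 reads at 2 h, against 397.5 to 494.5 in DMSO (1.48 ± 0.10), and the cell cycle inhibitor Cdkn1b fell (-0.83 ± 0.09). Of 23 glycolysis and hypoxia genes 4 rose and 6 fell, among them the glucose transporter gene Slc2a3 (-0.89 ± 0.06). Of 19 immediate early genes 4 rose and 5 fell, of 14 heat shock genes 1 rose and 3 fell, of 12 stem and progenitor regulators 2 rose and 3 fell, of 6 lymphoid genes 1 rose and 1 fell, and of 3 fibroblast and endothelial genes 1 fell.

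**Figure D3:**
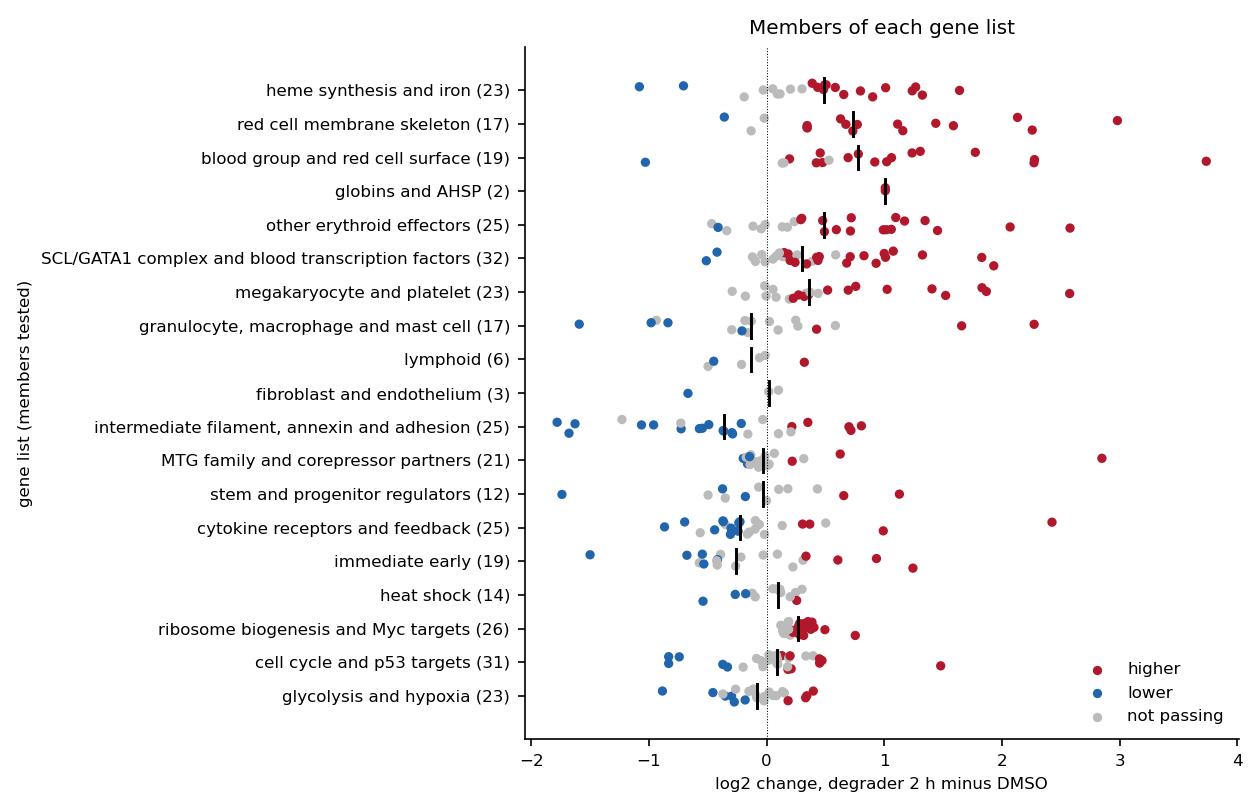
Log2 change (degrader 2 h minus DMSO) of every tested member of each gene list, with the number tested in brackets, red for higher, blue for lower, grey for not passing, and a black bar at the list's median. The 4 red cell lists with more than 2 tested members have medians of 0.48 to 0.78, and the intermediate filament, annexin and adhesion list has one of -0.36.

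The 2 h values can be set beside the earlier times of the same course, which share its DMSO libraries. Cbfa2t3 read 23814 ± 4797 in DMSO (SD, n = 3), 53873 at 15 min and 110170 at 30 min (means of 2 libraries each, 86127 and 128440 with the third), 156560 ± 2880 at 1 h (SD, n = 3) and 169500 ± 8909 at 2 h (SD, n = 2). Hemgn, Gypc and Car2 were each highest at 2 h, and without the libraries that stand apart took the same order. With them Car2 read 4062 at 15 min and 4023 at 30 min, out of that order. Hemgn read 565.7 in DMSO, 1815 at 15 min, 2411 at 30 min (2163 and 2708 with the third), 3062 at 1 h and 3381 at 2 h. Others were past their highest value by 2 h. Itgb3 read 86.5 in DMSO, 299.5 at 15 min, 338.5 at 30 min (318.1 and 366.0 with the third), 458.0 ± 25.3 at 1 h and 313.8 ± 6.49 at 2 h, and Alas2 read 2276 ± 70.2 at 1 h and 1788 ± 0.337 at 2 h. For both, the 2 h libraries lay below all 3 libraries of 1 h, and this difference was not tested. Vim read 1161 in DMSO, 933.2 at 15 min, 742.4 at 30 min (775.7 and 689.4 with the third), 524.1 at 1 h and 362.4 at 2 h, lower at each step.

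**Figure D4:**
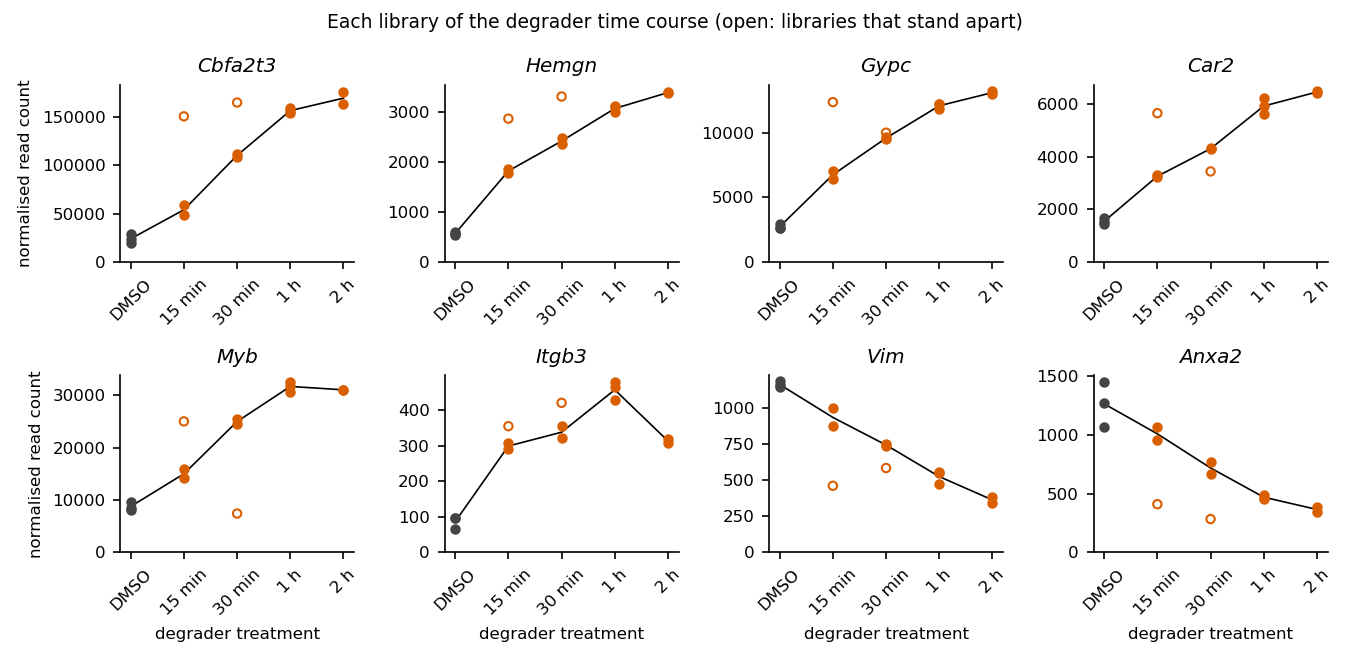
Normalised read count of 8 genes in each library of DMSO and of 15 min, 30 min, 1 h and 2 h of degrader, with a line through the means and open circles for 15 min replicate 2 and 30 min replicate 3, which stand apart and are left out of the line. Cbfa2t3, Hemgn and Car2 are highest at 2 h, Itgb3 is highest at 1 h, and Vim and Anxa2 are lowest at 2 h.

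A second experiment of the series, with DMSO libraries of its own, compared 1 h of degrader (250 nM) and 1 h of A485 (10 µM) with DMSO (3 libraries each). Its A485 libraries were shallower, with 7453718 to 14686743 recovered reads over transcripts, against 21400590 to 27309451 in DMSO, and the part of depth was not tested. The question here is whether genes called at 2 h behave alike there, and the time differs. Among the genes tested at 2 h, the degrader raised 17.3% and lowered 13.2% there, and A485 raised 27.1% and lowered 31.8%. Of 1772 genes that rose at 2 h and were tested there, 994 also rose with 1 h of degrader, which is 56.1% of the 2 h list and 46.1% of the 1 h list, and 130 fell. Of 1431 that fell at 2 h, 432 fell (30.2% and 26.2% of the lists) and 78 rose. Of 248 genes that rose by at least 1 at 2 h, 227 rose there and none fell. Of 66 that fell by at least 1, 34 fell there and 1 rose. A485 went the other way for the risen genes, lowering 1127 of 1746 and raising 183, while of the 1431 fallen genes it lowered 714 and raised 341. Cbfa2t3 changed by 2.18 ± 0.04 with 1 h of degrader (adjusted p = 4.32e-22) and by -4.13 ± 0.15 with 1 h of A485 (adjusted p = 2.62e-12). Hemgn changed by 1.59 and -3.05 and Vim by -1.21 and -3.31 in the same order. With 1 h of degrader Fbp2 (-0.44) and Zfp467 (-0.01) did not pass and Serpinb1a rose (0.455). The others of the 15 largest falls fell there too. Ribosome biogenesis genes differed from the 2 h result, with 1 of 26 higher and 10 lower after 1 h of degrader, a difference that was not tested.

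**Figure D5:**
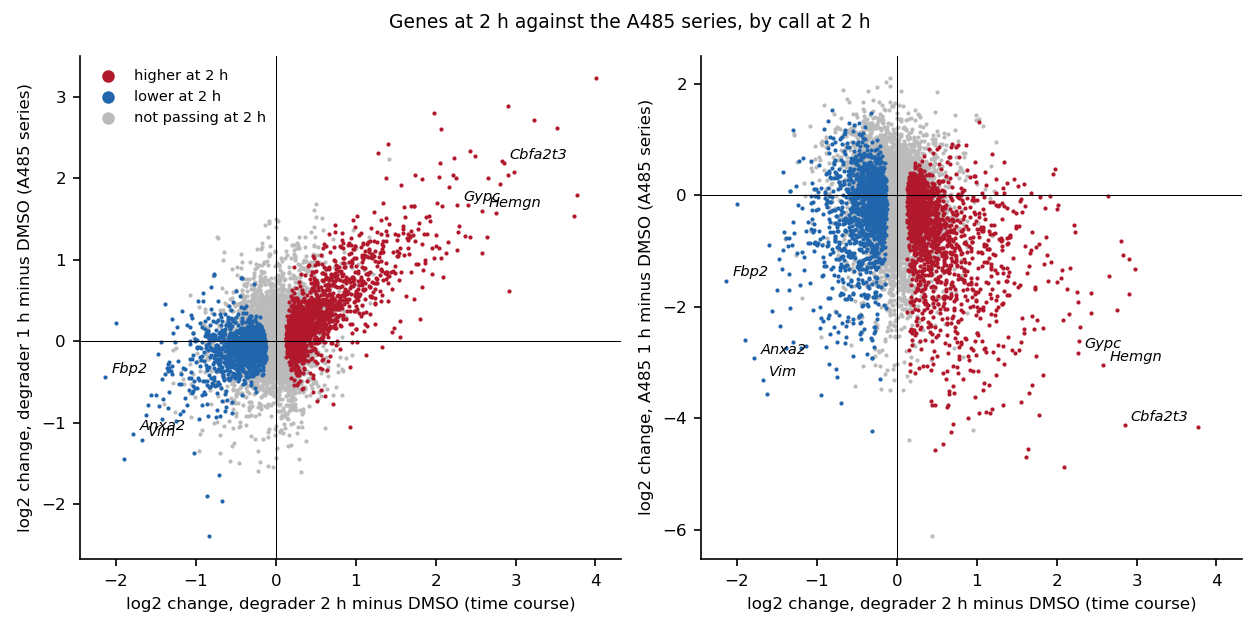
Log2 change of each gene at degrader 2 h minus DMSO (x axis) against its change at 1 h of degrader (left) and 1 h of A485 (right) minus DMSO in the A485 series, coloured by the call at 2 h. Genes higher at 2 h lie mostly above 0 on the left and mostly below 0 on the right.

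Transcribed regulatory elements, found from run-on data as dREG sites, changed more often upward. Of 22679 sites tested, 2154 rose (9.5%) and 776 fell (3.42%). The median change of the risen sites was 1.14 on the log2 scale, and 1292 of them (60.0%) rose by at least 1. Risen sites had a median width of 960 bp and fallen sites one of 835 bp, against 650 bp for sites that did not pass, whose median level was also lower (52.8 reads, against 89.7 and 119.1). The count was 1392 or 1294 when 2 h replicate 1 or 2 was left out.

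Among sites with a mean of at least 20 reads, the largest rise was on chromosome 2 at 127926031 to 127926610 (mm39), with 331.8 and 349.5 reads at 2 h, against 14.9, 15.5 and 17.9 in DMSO (4.32 ± 0.23, adjusted p = 1.11e-13). The next lay beside it, at 127926911 to 127927410, with 112.6 and 107.9 at 2 h, against 7.47, 4.57 and 4.47 (4.13 ± 0.37). A site on chromosome 7 at 139283901 to 139285090 had 109.3 and 96.6 at 2 h, against 13.1, 5.48 and 4.47 (3.71 ± 0.39). The rule for naming sites required that the groups not overlap, so the gap at these sites was set by the choice. These 3 sites reached the mean of 20 through their 2 h libraries (DMSO means of 16.1, 5.50 and 7.68). The other 5 of the 8 named rises, on chromosomes 5, 1, 11, 15 and 10, ran from 3.39 to 3.93. The largest falls were on chromosome 4 at 44962271 to 44963120, with 9.16 and 1.73 reads at 2 h, against 24.3, 32.9 and 43.2 (-2.67 ± 0.48), and on chromosome 16 at 39704531 to 39705000, with 11.1 and 19.0, against 93.4, 79.5 and 80.5 (-2.45 ± 0.27). The genes near the sites are not given, as no mm39 annotation was used.

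Some of the risen sites lay in runs. Linking called sites of 1 direction at most 20 kb apart left 1033 of the 2154 risen sites and 580 of the 776 fallen sites single. It gave 150 runs of 3 or more risen sites, holding 583 sites, and 19 such runs of fallen sites, holding 62. The longest runs had 10 risen sites: 10 of 10 tested sites on chromosome 7 between 24069321 and 24094220 (changes of 0.90 to 2.12) and 10 of 10 on chromosome 8 between 121274581 and 121311570 (0.62 to 1.27). On chromosome 6 between 55313321 and 55348820, 8 of 8 tested sites rose, by 1.35 to 3.22. These spans begin and end at risen sites and were picked from the longest runs, so high shares are partly built in. Whether runs were more frequent than the number of called sites alone would give was not tested. Neighbouring genes also shared directions. Among neighbours in gene order whose bodies do not overlap, 26.8% of the genes beside a risen gene had risen, against 14.1% of all, and 18.0% of those beside a fallen gene had fallen, against 11.3%. Pabpn1l and Cbfa2t3 were such a pair (2.76 and 2.85), as were F2r and Iqgap2 (1.83 and 2.00). Pabpn1l lies downstream of Cbfa2t3 on the same strand. Reads of polymerase running past the end of a gene could fall in the next gene, and their part in shared directions was not tested.

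In the second experiment 21.1% of the sites tested at 2 h rose and 14.3% fell with 1 h of degrader, and 13.8% rose and 18.6% fell with A485. Of 2043 sites that rose at 2 h, 1506 also rose with 1 h of degrader (73.7% of the 2 h list, 34.4% of the 1 h list) and 30 fell. Of 744 that fell, 232 fell there (31.2% and 7.82%). A485 lowered 944 of 1769 risen sites and raised 54. The 2 sites on chromosome 2 rose there by 2.80 and 3.35 with 1 h of degrader.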

How the data were processed

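MEL cells were assayed by PRO-seq. The values the authors deposited are DESeq2-normalized counts per gene and per dREG site, per the labels, and are treated as signal. Per the submitters' processing notes DESeq2 1.46.0 and featureCounts 2.0.1 were used, with HOMER, bedtools, SAMtools 1.16.1 and Bowtie2 2.2.2, on builds dm3 and mm39. What each did, which filters were set and whether strand was used is not given in the sources used here. Whole reads were recovered from each column by its smallest step (tolerance 0.1), which gave the depths, and intervals from depth cover counting error only. Of 25857 transcripts, each of 15020 symbols was represented by the 1 with the highest mean over the 5 libraries.

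The 2 h (n = 2) and DMSO (n = 3) columns were compared on log2(value + 1) by limma 3.58.1 under R 4.3.3, with an intensity trend in eBayes, for features with a mean of at least 10, with Benjamini-Hochberg adjustment over all features tested and calls at 0.05. Fold changes keep that scale, on which low genes appear to change less than they did, and come with standard errors. edgeR 4.0.16 and DESeq2 1.42.0 on the recovered reads, other pseudocounts, filters, scalings and sample sets were alternatives. The count test edgeR called 3457 genes, and 100% of values came out whole. On simulated counts for this gene comparison (12613 genes tested, 200 changed), limma recovered 90.8% of changes of 1 and 99% of changes of 2 on the log2 scale. The simulation held no smaller changes and gave genes of like level the same spread. Called changes had medians of 0.35 and -0.34, so it gives no recovery rate for most calls. The 1 h groups of the A485 series were tested the same way in their own tables. In all, 41 per-sample columns of the tables were not used, 1 of them empty.

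Genes are named by a rule. It takes the MTG family, and the 20 largest rises and 15 largest falls with a mean of at least 50 and no overlap. It adds up to 4 passing and 2 non-passing members per list. Among sites it takes 8 rises and 6 falls with a mean of at least 20 and no overlap. Some items that the rule or the lists hold are not reported here. Other list members named in the text were chosen after their values were seen. Members and lists were chosen with earlier results of these data known. Whether replicate numbers pair the samples is not known. Same-numbered deviations correlated at 0.05 and 0.01 over genes and at 0.08 and 0.03 over sites. With 2 libraries at 2 h their deviations mirror each other, so this check cannot settle it. RefSeq (GRCm38.p6) matched 15003 symbols and gave 10224 promoters of tested genes, and its gene order gave the neighbours.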

Additional observations from a re-analysis of the deposited data

How the results depend on the processing

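The number of genes called at 2 h lay between 2965 (DESeq2) and 3457 (edgeR) under another pseudocount, other filters, TMM scaling and both count tests, and was 3976 when every degrader time was fitted together without the 2 libraries that stand apart. It was 1640 to 3282 when 1 library was left out, 956 when every degrader time was fitted with them, 788 in that fit with the replicate block, 1195 with washout groups added and 5002 when every transcript was tested. The replicate block on the 5 libraries gave 4028 genes and 3364 sites, though whether the numbers pair the samples is not known. Sites ran from 1294 to 3546 when 1 library was left out. In fits of every degrader time that hold the 2 libraries that stand apart the share of rises among called genes went to 76.9%, 82.7% with the block and 72.1% with washout, against 55.4%, and among called sites to 87.4%, 87.7% and 85.0%, against 73.5% (84.5% without 2 h replicate 2). Without those 2 libraries the shares were 54.2% and 72.4%. No paired analysis was possible for A485 because its libraries share no replicate number with DMSO. Calls shared with 1 h of degrader, limited to changes of at least 1 at 2 h, numbered 227 and 34 for genes (higher and lower) and 965 and 55 for sites. Of 91 named genes that passed, 59 kept call and direction under every alternative run for them, 32 lost the call under some, and none reversed. Hbb-bt, Cish, Cdkn1b, Rasgrp4, Serpinb1a and Zfp970 were among those that lost it. All 14 named sites kept theirs. The named sites and most named genes that passed were picked for large changes in these same libraries, so this is partly built in. Of all 3218 genes called, 951 were called again when every degrader time was fitted together, and of all 2930 sites, 2009. Leaving out 1 of the 2 libraries at 2 h leaves the other alone, and it is then assumed to vary like DMSO.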
